A study of Mus musculus with 6 samples.

Results

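The 35 genes described here encode enzymes of cholesterol and fatty acid synthesis and the proteins that regulate them. They comprise 18 sterol enzymes, 6 regulators and sterol transfer genes, and 11 genes of the fatty acid branch, among 21358 entries of the gene expression table. All 35 were found by symbol. They were picked by name after a fall in ACT + NKTR-214 tumors had been seen in these same 6 libraries. The differences between groups are therefore given as a description, with values and errors and no p-value. Whether one of these genes passed the threshold applied to all genes is given as a mark beside the share of all genes that did so, not as evidence, and the comparison of the sterol branch with the fatty acid branch is read in the same way.

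RNA-seq was performed on whole B16F10 tumors harvested at day 12 of treatment from C57/BL6 mice. B16F10 is a murine melanoma line, here implanted subcutaneously and grown to at least 150 mm3 before treatment. All mice were irradiated and received pmel-1 T cells by adoptive cell transfer (ACT), cells that carry a T cell receptor for the melanoma antigen gp100 and were activated with peptide before transfer. One group of 3 mice then received IL-2 on consecutive days (ACT + IL-2), and the other group of 3 received a single dose per cycle of NKTR-214, an IL-2 conjugated to releasable polyethylene glycol chains (ACT + NKTR-214). Each tumor gave 1 library, so the tumors are separate animals. The cells of each tumor were not separated, and the tumors held host stroma and immune cells beside the melanoma cells. Fewer cells of a type and less RNA per cell cannot be told apart in such material.

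Values are FPKM, fragment counts divided by exon length and by the library's mapped fragments, which can be compared between genes because they are scaled to length. The FPKM of the least expressed genes implied 20880000 to 24660000 mapped reads per library. After multiplying each FPKM by exon length, the summed signal in genes of ACT + IL-2 replicate 2 was 79.8% of the median library, against 92.5 to 102.0% in the other 5 libraries. Differences are those of log2(FPKM + 1), ACT + NKTR-214 minus ACT + IL-2, with standard errors (SE) from limma, and means are given ± SD with n = 3 tumors per group. Genes were tested where FPKM averaged 0.1 or more over the libraries, and among these 14172 genes limma with Benjamini-Hochberg adjustment at 0.05 called 8.28% lower and 20.7% higher in ACT + NKTR-214 tumors. All 3 ACT + NKTR-214 tumors were below all 3 ACT + IL-2 tumors in 15.3% of genes and above them in 27.1%, and the median difference over all genes was 0.05. The balance of calls moved with the scaling, from 1173 lower and 2940 higher genes as deposited to 3501 lower (24.7%) and 3370 higher (23.8%) after scaling to a common 75th percentile.

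Cholesterol is built from acetyl-CoA through mevalonate, the isoprenoid diphosphates, squalene and lanosterol. Fatty acids are built from the same precursor by acetyl-CoA carboxylase and fatty acid synthase, and are then elongated and desaturated. Transcription of both branches is driven by the SREBP factors, which are held in the endoplasmic reticulum by SCAP and the INSIG proteins when sterols are plentiful, with SREBP-2 acting mainly on sterol genes and SREBP-1c mainly on fatty acid genes. SREBPs bind sterol regulatory elements and commonly act together with the factors NF-Y and Sp1, which bind the CCAAT box and the GC box.

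Promoter sequence was examined first, because the rule that chose the genes did not use it. The rule did name genes of pathways driven by the SREBPs, so the motif shares are a description. RefSeq promoter windows of 250 bases before to 50 bases after the transcription start (GRCm38.p6) were given for 28 of the 35 genes. Both strands were searched for a sterol regulatory element core (TCACNCCAC), the NF-Y box (CCAAT), the GC box (GGGCGG) and an E-box (CACGTG), and a gene was counted once if any of its windows held the letters. A few promoters are printed to show how the matches lie, each as the 250 bases before the start, read 5′ to 3′ on the strand of the gene, with matches on either strand in capitals. Hmgcs1 is shown because its window alone held the sterol regulatory element core. Mvd, Fasn and Lpin1 were chosen after their values were seen, as a sterol enzyme, a fatty acid enzyme and the one gene of the set that was called higher in ACT + NKTR-214 tumors. None of these stretches overlaps an exon of the GENCODE vM21 annotation.
Hmgcs1, chr13:119690101-119690350, plus strand: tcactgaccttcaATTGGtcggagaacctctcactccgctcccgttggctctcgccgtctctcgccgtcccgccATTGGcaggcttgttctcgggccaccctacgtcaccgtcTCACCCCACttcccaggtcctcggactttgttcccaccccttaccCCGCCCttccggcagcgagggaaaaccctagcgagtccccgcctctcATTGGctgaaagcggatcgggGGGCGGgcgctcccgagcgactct
Mvd, chr8:122443423-122443672, minus strand: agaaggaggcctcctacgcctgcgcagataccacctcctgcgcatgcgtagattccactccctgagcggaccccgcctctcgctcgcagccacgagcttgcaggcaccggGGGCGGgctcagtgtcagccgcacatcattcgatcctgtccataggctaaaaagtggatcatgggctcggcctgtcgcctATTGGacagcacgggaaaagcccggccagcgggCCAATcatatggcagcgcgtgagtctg
Fasn, chr11:120824548-120824797, minus strand: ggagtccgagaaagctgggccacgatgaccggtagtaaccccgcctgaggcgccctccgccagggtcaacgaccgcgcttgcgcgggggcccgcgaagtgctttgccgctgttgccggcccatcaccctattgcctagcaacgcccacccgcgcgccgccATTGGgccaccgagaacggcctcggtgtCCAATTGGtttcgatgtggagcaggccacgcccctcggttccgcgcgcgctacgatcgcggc
Lpin1, chr12:16610967-16611216, minus strand: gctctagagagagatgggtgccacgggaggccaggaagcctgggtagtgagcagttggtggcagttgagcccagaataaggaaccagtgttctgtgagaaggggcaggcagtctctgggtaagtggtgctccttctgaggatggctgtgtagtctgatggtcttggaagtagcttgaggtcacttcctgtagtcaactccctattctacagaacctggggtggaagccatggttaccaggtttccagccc

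In the Hmgcs1 promoter the capitals mark the element TCACCCCAC, which begins 137 bases before the start, 3 NF-Y boxes and 2 GC boxes. The Mvd stretch held 2 NF-Y boxes and 1 GC box. The Fasn stretch held 3 NF-Y boxes, of which 2 overlap on opposite strands in CCAATTGG, and no GC box. The Lpin1 stretch held none of the 4 motifs. An NF-Y box was present in the windows of 14 of 15 sterol enzymes (93.3%), 4 of 5 regulators (80.0%) and 4 of 8 fatty acid genes (50%), against 42.5% of the 10991 tested genes with a window and 41.1% of all genes with a window. Of the sterol enzymes with a window, Acat2 was the one without the box. The GC box was found in 14 of 15 sterol enzymes, 5 of 5 regulators and 3 of 8 fatty acid genes (37.5%), against 65.8% of tested genes. E-boxes were found in 3 sterol enzymes, 2 regulators and 1 fatty acid gene, that is 21.4% of the 28 genes against 11.3% of tested genes. The sterol regulatory element core in these exact letters was found in 1 of 28 genes (3.57%), against 1.46% of tested genes. These are matches of letters in a fixed window, and a window without a match says nothing of binding elsewhere.

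**Figure D1:**
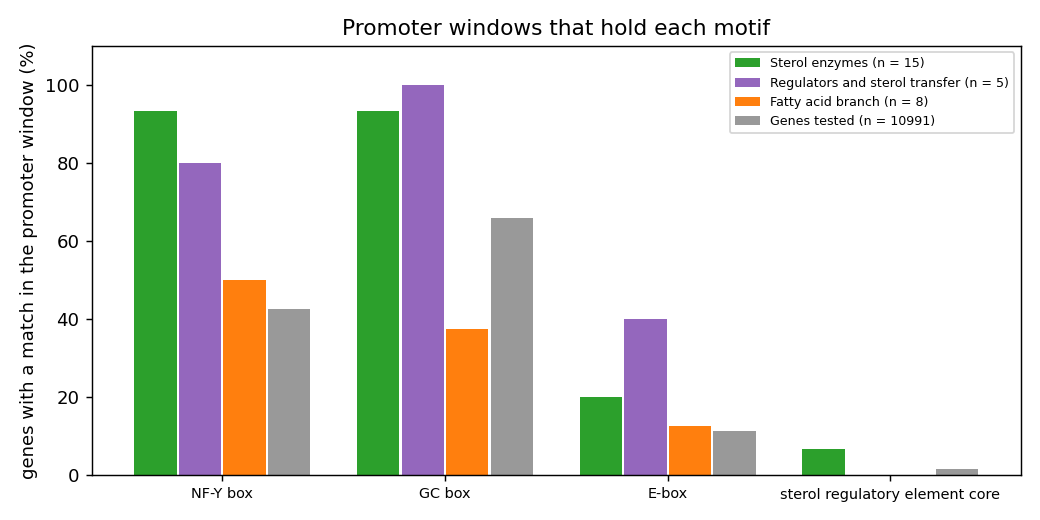
Share of genes (%, y axis) whose RefSeq promoter window holds each of 4 motifs (x axis), for the sterol enzymes, the regulators and sterol transfer genes, the fatty acid branch and all tested genes with a window. The NF-Y box was held by 93.3% of sterol enzymes, 50% of fatty acid genes and 42.5% of tested genes.

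All 18 sterol enzymes had a lower mean in the tumors treated with ACT + NKTR-214. Of these, 16 were called lower, beside 8.28% of all genes, and the 3 ACT + NKTR-214 tumors lay below the 3 ACT + IL-2 tumors in 17, beside 15.3% of all genes. The genes were selected on this contrast, so nothing is read from these counts. The median difference was -1.18 (range -2.31 to -0.05). Mean FPKM was over 2-fold lower in 15 of the 18 genes and over 3-fold lower in 8.

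The pathway begins with Acat2, which joins acetyl-CoA units in the cytosol. Its FPKM was 12.96, 11.74 and 12.01 in the ACT + IL-2 tumors, given here and below in the order of replicates 1 to 3, and 2.90, 2.09 and 1.97 in the ACT + NKTR-214 tumors, a difference of -2.00 (SE 0.16). The groups were far apart relative to the spread within each. Of the 50-base stretches of Acat2 transcripts, 39.1% also occur in another gene, mostly in Acat3, so its level is uncertain where such reads could not be assigned. Hmgcs1, the HMG-CoA synthase whose promoter is printed above, fell from 27.0 ± 2.48 to 8.18 ± 1.64 FPKM. The mevalonate kinases and decarboxylase were lower by a smaller factor: Mvk averaged 10.2 and 4.996 FPKM, Pmvk 6.99 and 3.96, and Mvd 15.7 and 7.61 in ACT + IL-2 and ACT + NKTR-214 tumors. Idi1, the isopentenyl diphosphate isomerase, was near the lower limit, with 0.35 to 0.50 FPKM in ACT + IL-2 and 0.11 to 0.24 in ACT + NKTR-214 tumors, or about 10 to 42 reads per library. Its difference was -0.32 with a pseudocount of 1 and -1.08 with 0.1.

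Fdps, which makes farnesyl diphosphate, had 9.68, 8.27 and 10.5 FPKM in ACT + IL-2 and 1.91, 1.202 and 1.52 FPKM in ACT + NKTR-214 tumors. The ratio of the group means, 6.15, was the highest of the 35 genes, and the difference was -2.05 (SE 0.16). Fdft1, the squalene synthase that takes up the product of Fdps, did not share this pattern. It had 6.35, 5.42 and 5.96 FPKM in ACT + IL-2 and 5.02, 6.79 and 5.31 FPKM in ACT + NKTR-214 tumors, and was the one sterol enzyme whose groups overlapped (difference -0.05, SE 0.16). Of its 50-base stretches, 26.5% are shared with another gene, mostly Ctsb, so its level is uncertain, as are those of Idi1 (25.3%) and Fdps (26.2%).

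Sqle, the squalene epoxidase, opens the steps to lanosterol. It had 46.2, 37.1 and 51.2 FPKM in ACT + IL-2 and 13.1, 9.98 and 13.9 FPKM in ACT + NKTR-214 tumors (difference -1.78, SE 0.17). Lss, the lanosterol synthase, averaged 11.3 ± 0.71 and 3.39 ± 0.57 FPKM. Both genes were more than 3-fold lower, with no overlap between the groups.

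Cyp51 and Msmo1 act in the demethylation of lanosterol and had the most negative differences with a pseudocount of 1. With a pseudocount of 0.1 Fdps was the lowest at -2.56, before Cyp51 at -2.47. Cyp51, the lanosterol demethylase, had 36.5, 32.1 and 37.5 FPKM in ACT + IL-2 and 7.55, 4.79 and 6.82 FPKM in ACT + NKTR-214 tumors (difference -2.31, SE 0.16). Msmo1, the methylsterol monooxygenase, had 57.5, 52.4 and 63.3 FPKM in ACT + IL-2 and 12.8, 9.58 and 12.2 FPKM in ACT + NKTR-214 tumors (difference -2.24, SE 0.15). The lowest ACT + IL-2 tumor was still several-fold above the highest ACT + NKTR-214 tumor for both genes. Nsdhl, which acts in the same demethylation complex, averaged 16.6 and 5.91 FPKM, and Hsd17b7 averaged 5.42 and 2.63.

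Dhcr7, the last reductase of the Kandutsch-Russell route, averaged 41.6 ± 3.21 FPKM in ACT + IL-2 and 13.1 ± 1.31 in ACT + NKTR-214 tumors, while Sc5d averaged 11.8 and 5.76 and Tm7sf2, a sterol reductase, 5.74 and 2.34. Ebp, the sterol isomerase placed among them, averaged 23.0 ± 2.32 and 18.0 ± 2.20 FPKM. Ebp was not called (difference -0.34, SE 0.15), although its groups did not overlap. After 75th percentile scaling its difference was -0.42 and it was called lower.

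**Figure D2:**
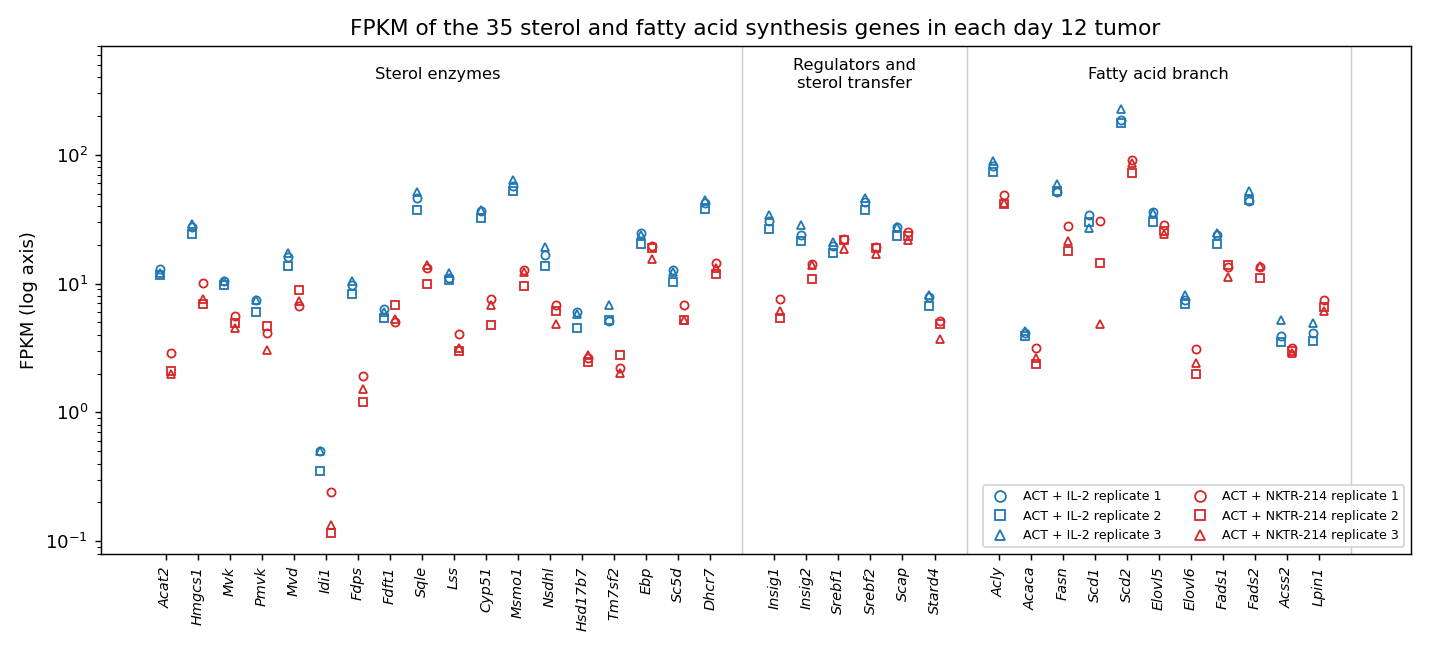
FPKM (y axis, log scale) of each of the 35 genes (x axis, in pathway order within each branch) in the 3 ACT + IL-2 and the 3 ACT + NKTR-214 tumors, 1 point per tumor. The groups do not overlap for 31 genes, of which 30 are lower and Lpin1 is higher in ACT + NKTR-214 tumors, and Scd1 has the widest spread among ACT + NKTR-214 tumors.

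The 6 regulators and sterol transfer genes did not move as a block. In 4 of them the ACT + NKTR-214 tumors were lower without overlap and were called lower, beside 15.3% and 8.28% of all genes, and in 2 the groups overlapped (median difference -0.75, range -2.10 to 0.11). Insig1, which retains the SREBP-SCAP complex and is itself a target of SREBP, had 30.5, 26.7 and 34.3 FPKM in ACT + IL-2 and 7.58, 5.37 and 6.08 FPKM in ACT + NKTR-214 tumors (difference -2.10, SE 0.16). Its paralog Insig2 had 23.9, 21.3 and 28.7 FPKM in ACT + IL-2 and 14.1, 10.9 and 14.0 FPKM in ACT + NKTR-214 tumors (difference -0.87, SE 0.16). Both were lower in every ACT + NKTR-214 tumor, Insig1 by the greater factor. The ratio of Insig1 to Insig2 within a tumor was 1.19 to 1.28 in ACT + IL-2 and 0.43 to 0.54 in ACT + NKTR-214 tumors, so that Insig1 was the more abundant paralog in the one group and Insig2 in the other.

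The SREBP genes differed in the same manner. Srebf2, which encodes SREBP-2, had 42.9, 37.0 and 46.5 FPKM in ACT + IL-2 and 19.35, 18.96 and 17 FPKM in ACT + NKTR-214 tumors (difference -1.15, SE 0.15). Srebf1, which encodes the SREBP-1 isoforms, had 19.5, 17.2 and 21.0 FPKM in ACT + IL-2 and 22.2, 21.8 and 18.6 FPKM in ACT + NKTR-214 tumors (difference 0.11, SE 0.14). The groups were apart for Srebf2 and overlapped for Srebf1. The ratio of Srebf2 to Srebf1 was 2.20, 2.15 and 2.21 in the ACT + IL-2 tumors and 0.87, 0.87 and 0.92 in the ACT + NKTR-214 tumors, a spread within groups of 0.03 (SD) in each. A ratio within a library does not change when the whole library is scaled by 1 factor. The table has 1 row per gene, so the SREBP-1a and SREBP-1c isoforms were not separated.

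Scap, the escort protein of the SREBPs, had 27.2, 23.5 and 27.5 FPKM in ACT + IL-2 and 25, 23.4 and 21.9 FPKM in ACT + NKTR-214 tumors (difference -0.15, SE 0.14), and the groups overlapped. After 75th percentile scaling its difference was -0.23 and it was called lower. Stard4, a cytosolic sterol transfer protein, had 7.93, 6.69 and 8.17 FPKM in ACT + IL-2 and 5.12, 4.84 and 3.72 FPKM in ACT + NKTR-214 tumors (difference -0.63, SE 0.16). Its ACT + NKTR-214 values were all below its ACT + IL-2 values.

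**Figure D3:**
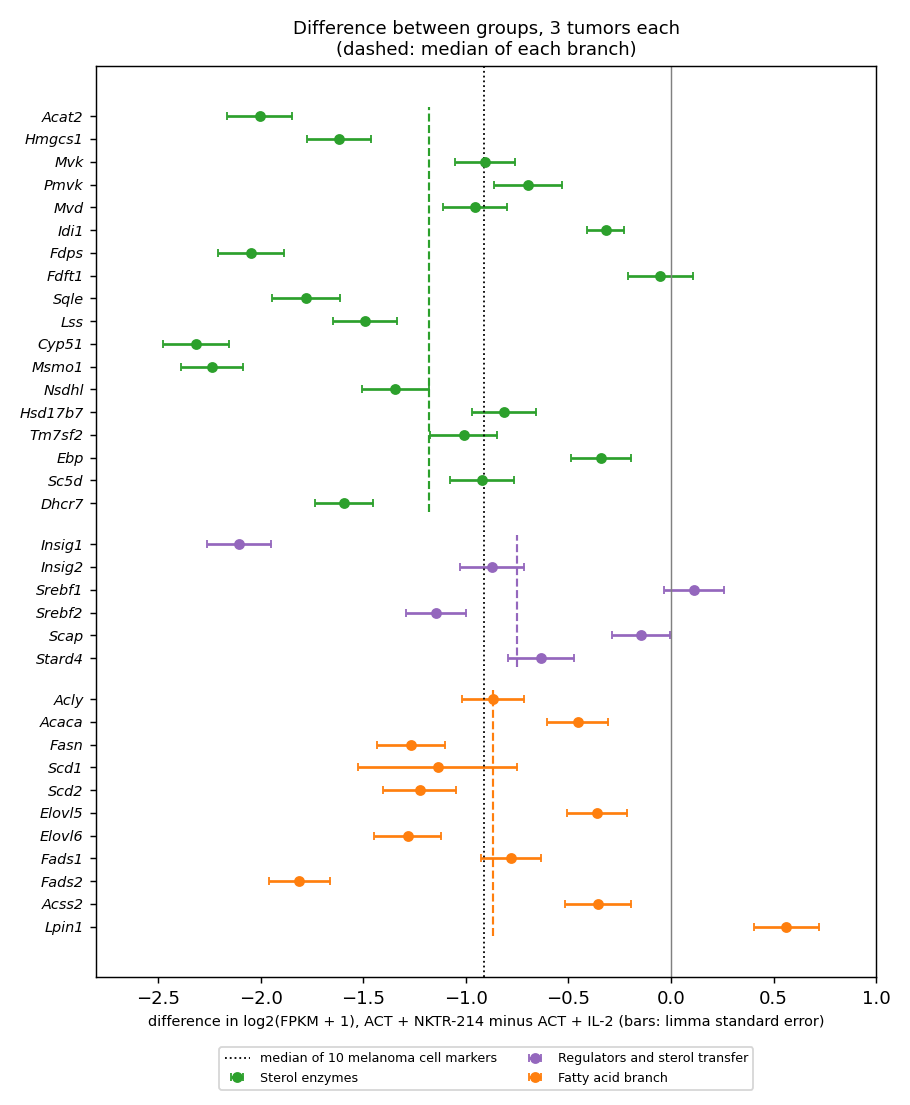
Difference in log2(FPKM + 1), ACT + NKTR-214 minus ACT + IL-2 (x axis, points with limma standard errors) for each of the 35 genes (y axis), with dashed lines at the median of each branch and a dotted line at the median of 10 melanoma cell markers. Cyp51 and Msmo1 lie farthest to the left, Fads2 is the lowest fatty acid gene, and Srebf1 and Lpin1 lie to the right of 0.

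In the fatty acid branch 10 of 11 genes had a lower mean in ACT + NKTR-214 tumors, and 8 were called lower, beside 8.28% of all genes. One gene, Lpin1, was called higher, beside 20.7% of all genes. The ACT + NKTR-214 tumors lay below the ACT + IL-2 tumors in 9 genes and above them in 1, beside 15.3% and 27.1% of all genes. Nothing is read from these counts either. The median difference was -0.87 (range -1.81 to 0.56), and 4 of the 11 genes were over 2-fold lower.

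Acly, which supplies cytosolic acetyl-CoA from citrate, averaged 81.5 ± 8.22 FPKM in ACT + IL-2 and 44.2 ± 4.03 in ACT + NKTR-214 tumors. Acss2, which makes acetyl-CoA from acetate, averaged 4.198 ± 0.89 and 3.03 ± 0.13 FPKM and was not called, although its groups did not overlap. The ratio of Acly to Acss2 was 17.2 to 21.0 in ACT + IL-2 and 13.7 to 15.4 in ACT + NKTR-214 tumors. Acaca, the carboxylase that commits acetyl-CoA to fatty acids, averaged 4.08 ± 0.17 and 2.72 ± 0.39 FPKM, and 30.4% of its 50-base stretches are shared. Fasn, the fatty acid synthase, had 51.6, 52.2 and 58.9 FPKM in ACT + IL-2 and 27.8, 17.9 and 21.2 FPKM in ACT + NKTR-214 tumors (difference -1.26, SE 0.17). The lower end of the ACT + IL-2 tumors was well above the highest ACT + NKTR-214 tumor, replicate 1.

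The elongases and desaturases act on the product of Fasn. Elovl6, which elongates palmitate, had 7.41, 6.87 and 8.15 FPKM in ACT + IL-2 and 3.12, 1.98 and 2.40 FPKM in ACT + NKTR-214 tumors (difference -1.28, SE 0.16). Elovl5, which elongates polyunsaturated chains, averaged 33.8 ± 3.27 and 26.1 ± 2.32 FPKM and was not called (difference -0.36, SE 0.14). Fads2, the delta-6 desaturase, had 44.0, 44.5 and 52.2 FPKM in ACT + IL-2 and 13.4, 10.96 and 13.7 FPKM in ACT + NKTR-214 tumors (difference -1.81, SE 0.15). It was the gene of this branch with the greatest difference and was 3.70-fold lower. Fads1, the delta-5 desaturase whose gene lies nearby on chromosome 19 (Fads2 at chr19:10062765-10101746 and Fads1 at chr19:10182888-10196877, GENCODE vM21 on GRCm38), averaged 22.9 ± 2.35 and 12.9 ± 1.40 FPKM. The ratio of Fads2 to Fads1 was 1.85 to 2.20 in ACT + IL-2 and 0.78 to 1.21 in ACT + NKTR-214 tumors, without overlap.

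Scd2 and Scd1 encode stearoyl-CoA desaturases, which make monounsaturated fatty acids, and also lie near each other on chromosome 19, with Scd4 between them (Scd2 at chr19:44293674-44306864 and Scd1 at chr19:44394455-44407879). Scd2 was the most abundant of the 35 genes, with 185.3, 177.3 and 225.6 FPKM in ACT + IL-2 and 91.5, 71.5 and 87.0 FPKM in ACT + NKTR-214 tumors (difference -1.23, SE 0.18). Scd1 had 33.8, 30.1 and 26.9 FPKM in ACT + IL-2 and 30.6, 14.4 and 4.83 FPKM in ACT + NKTR-214 tumors (difference -1.14, SE 0.39). Scd2 was lower in every ACT + NKTR-214 tumor, whereas Scd1 in ACT + NKTR-214 replicate 1 lay within the ACT + IL-2 range and replicate 3 lay far below it. Without ACT + NKTR-214 replicate 1 the difference of Scd1 was -1.72, and without replicate 3 it was -0.50, so its size rests on single tumors. The ratio of Scd2 to Scd1 ran from 5.48 to 8.39 in ACT + IL-2 and from 2.99 to 18.0 in ACT + NKTR-214 tumors.

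Markers of adipocytes, which express Scd1 strongly, ran in the same order of tumors as Scd1 within each group. The summed FPKM of 7 adipocyte markers was 110.5, 66.4 and 25.9 in ACT + IL-2 and 228.7, 160.3 and 47.0 in ACT + NKTR-214 tumors. Of the 7, 3 were called higher, beside 20.7% of all genes. The most abundant of the adipocyte markers, Fabp4, ranged from 20.4 to 103.3 FPKM and Cfd from 4.35 to 96.6 FPKM. Of these markers none was at 0 in every library. Scd1 was thus highest in the tumor of each group with the highest adipocyte sum and lowest in the tumor with the lowest, while the sums were higher on the whole in the group with the lower Scd1. The part of adipocytes in the Scd1 values was not tested.

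**Figure D4:**
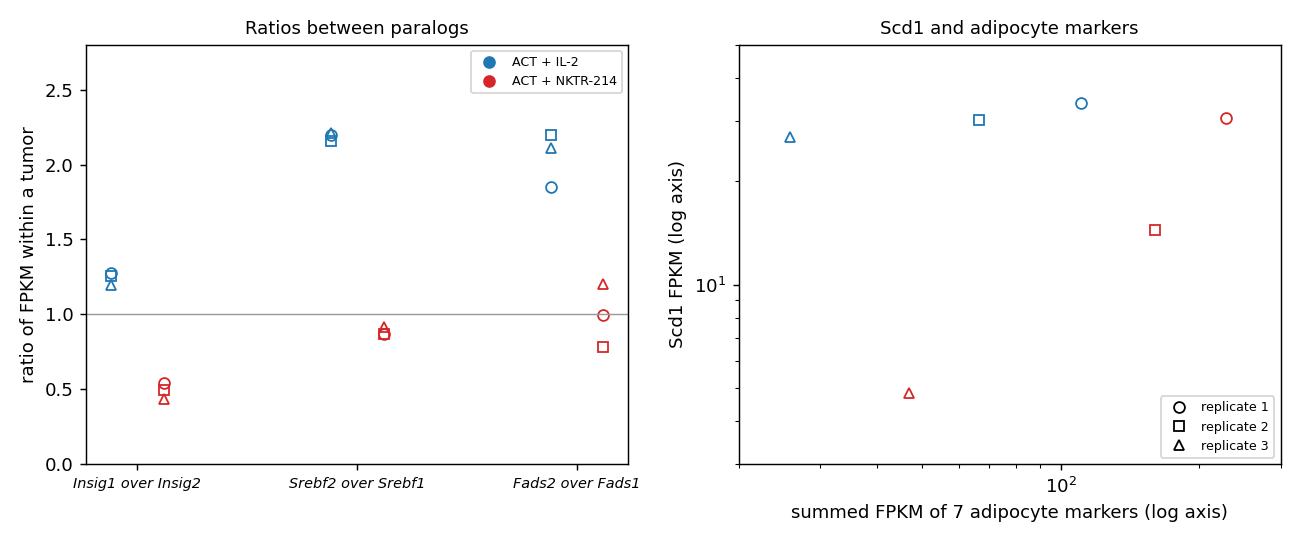
Left, ratio of FPKM within a tumor (y axis) for 3 pairs of paralogs (x axis), with a line at 1. The ratios of Insig1 to Insig2 and of Srebf2 to Srebf1 lie above 1 in the 3 ACT + IL-2 tumors and below 1 in the 3 ACT + NKTR-214 tumors. Right, Scd1 FPKM (y axis, log scale) against the summed FPKM of 7 adipocyte markers (x axis, log scale) in the same tumors, colored as on the left, where Scd1 runs from 4.83 to 30.6 in ACT + NKTR-214 tumors.

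Lpin1, a phosphatidate phosphatase of glycerolipid synthesis, was the gene of the set with a clearly higher level in ACT + NKTR-214 tumors. It had 4.16, 3.57 and 4.97 FPKM in ACT + IL-2 and 7.44, 6.62 and 6.08 FPKM in ACT + NKTR-214 tumors (difference 0.56, SE 0.16). All ACT + NKTR-214 values were above all ACT + IL-2 values. Without ACT + NKTR-214 replicate 1 the difference was 0.50 and Lpin1 was no longer called.

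The branches were then compared within each tumor. The level of a branch in a tumor was the median, over its genes, of log2(FPKM + 1) after the mean of each gene over the 6 tumors was subtracted. The sterol enzymes had levels of 0.63, 0.42 and 0.79 in ACT + IL-2 and -0.53, -0.59 and -0.68 in ACT + NKTR-214 tumors. The fatty acid branch had levels of 0.45, 0.29 and 0.50 in ACT + IL-2 and -0.29, -0.45 and -0.54 in ACT + NKTR-214 tumors. Both branches separated the groups, and the sterol enzymes did so by more. The sterol level minus the fatty acid level was 0.19, 0.13 and 0.29 in ACT + IL-2 and -0.24, -0.14 and -0.14 in ACT + NKTR-214 tumors, positive in all 3 tumors of the one group and negative in all 3 of the other. Because each gene was centred over the same 6 tumors, opposite signs in the groups follow largely from the gap itself. The difference between the branch medians was -0.31 on the log2 scale, -0.48 with a pseudocount of 0.1 and -0.48 with a minimum mean FPKM of 1, and the ranges of single genes overlapped widely, from -2.31 to -0.05 for sterol enzymes and from -1.81 to 0.56 for the fatty acid branch. Both branches were part of what the genes were picked on, so this gap is a description.

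**Figure D5:**
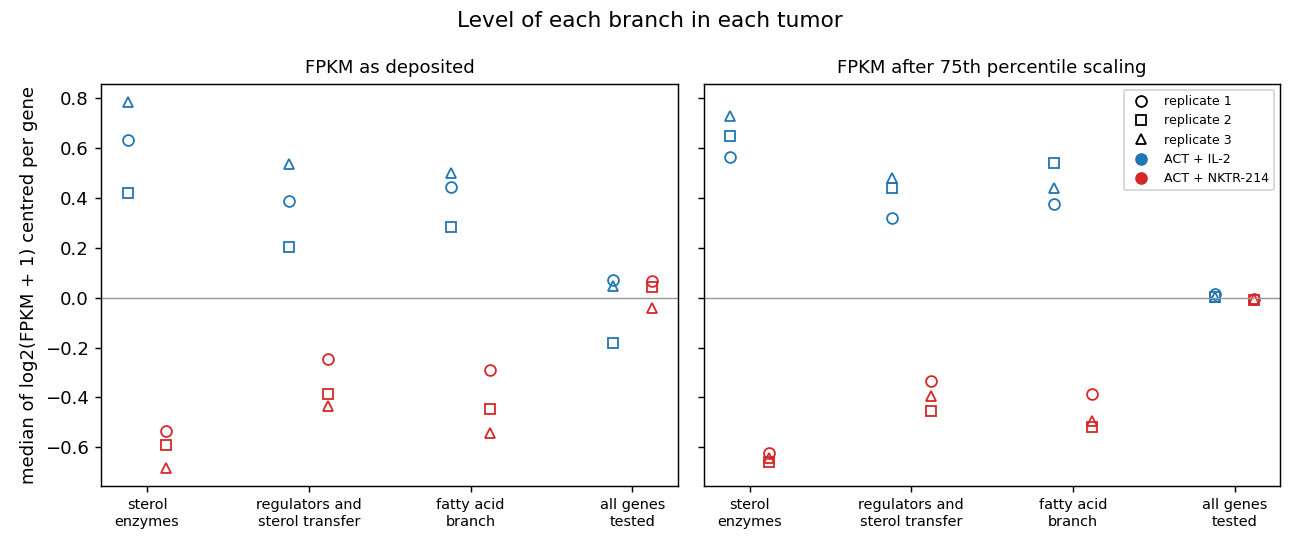
Level of each branch, as the median over its genes of log2(FPKM + 1) centred on the mean of each gene (y axis), in each of the 6 tumors for FPKM as deposited (left) and after scaling to a common 75th percentile (right), with the median of all tested genes beside them. The sterol enzymes run from 0.42 to 0.79 in ACT + IL-2 and from -0.68 to -0.53 in ACT + NKTR-214 tumors as deposited, and ACT + IL-2 replicate 2 rises once the libraries are scaled.

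ACT + IL-2 replicate 2 was the lowest ACT + IL-2 tumor in 31 of the 35 genes, the library with the low signal in genes noted above. After scaling to a common 75th percentile it was the lowest in 2 of 35, and the branch medians became -1.25 for sterol enzymes, -0.83 for regulators and -0.95 for the fatty acid branch. This scaling moved the median difference of all genes to -0.01, and 17 sterol enzymes, 5 regulators and 9 fatty acid genes were then called lower, beside 24.7% of all genes. Elovl5 (-0.44) and Acss2 (-0.42) were among those gained, with Ebp and Scap, and Scd1 (-1.22) was not called. Without ACT + IL-2 replicate 2, 17 sterol enzymes, 4 regulators and 8 fatty acid genes were called lower, beside 14.1% of all genes. Among ACT + NKTR-214 tumors replicate 1 was the highest in 27 of the 35 genes, and the lowest was replicate 2 in 17 and replicate 3 in 16.

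The labelled tissue was checked against melanoma markers, which were abundant in each tumor and lower in ACT + NKTR-214 tumors. The summed FPKM of 10 markers, among them Tyrp1 and Dct, ran from 5672 to 7262 in ACT + IL-2 and from 2774 to 3930 in ACT + NKTR-214 tumors. Of these 10 markers 8 were called lower, beside 8.28% of all genes. The median difference of the 10 was -0.91 (range -1.91 for Mitf to -0.59 for Sox10). The medians of the sterol enzymes, -1.18, and of the fatty acid branch, -0.87, lay on either side of this value. Of the 35 genes, 19 had a difference below the melanoma median, comprising 12 sterol enzymes, 2 regulators and 5 fatty acid genes. Acat2, Fdps, Cyp51, Msmo1 and Insig1, 5 genes in all, were below Mitf, the lowest of the melanoma markers. Cell cycle genes moved the same way, with 7 of 10 called lower, beside 8.28% of all genes. The summed FPKM of these 10 was 347.1 to 424.6 in ACT + IL-2 and 201.9 to 299.0 in ACT + NKTR-214 tumors. The part of melanoma cell number or cycling in the levels of the 35 genes was not tested.

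Markers of T cells, macrophages and fibroblasts moved in the opposite direction. T cell markers summed to 10.2 to 25.2 FPKM in ACT + IL-2 and 140.7 to 306.6 in ACT + NKTR-214 tumors. Of these, 6 of 6, among them Cd3g and Cd3e, were called higher, beside 20.7% of all genes. Macrophage markers, led by Lyz2 and C1qb, summed to 391.6 to 1147 and 1768 to 3168 FPKM. Of these, 8 of 8 were called higher, beside 20.7% of all genes. Fibroblast markers, led by Col3a1 and Col1a1, summed to 215.7 to 645.0 and 577.7 to 1160 FPKM, and the sums of the groups overlapped. Of these markers, 5 of 6 were called higher, beside 20.7% of all genes. Markers of keratinocytes and sebocytes, including Krt5 and Krt14, were near 0, with sums of 0.32 to 1.57 FPKM and 3 of the 7 under 0.1 FPKM in every library. Of these markers 3 were tested and none was called, and the sums of the groups overlapped. The part of these cells in the levels of the 35 genes was not tested.

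Further genes of the same and neighbouring pathways were taken from lists written by function, with earlier results of these data known. They were compared with limma over all 14172 genes, and their adjusted p-values are not an independent test. Of 25 other genes of sterol and isoprenoid metabolism, 24 were tested, of which 6 were lower and 1 was higher, beside 8.28% and 20.7% of all genes (median difference -0.13, beside 0.05 for all genes). After 75th percentile scaling 10 were lower, beside 24.7% of all genes, and with quantile normalization 14, beside 31.9%. As deposited the other 17 were not called, among them Fnta and Fntb of protein prenylation and Pdss1 of ubiquinone synthesis, which were called lower after 75th percentile scaling (limma adjusted p of 0.00839, 0.0182 and 0.00724). Tmem97, a sterol-responsive membrane protein, fell from 6.12 ± 0.19 to 2.76 ± 0.29 FPKM (difference -0.92, SE 0.15, limma adjusted p = 1.9e-04). The mitochondrial thiolase Acat1 fell from 32.0 ± 3.40 to 20.01 ± 2.89 FPKM (limma adjusted p = 0.0039). Mbtps1 and Mbtps2, the proteases that release the SREBPs, were not called (differences -0.05, SE 0.14, and -0.13, SE 0.15). These 7 genes were chosen after their values were seen.

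Of 37 other genes of fatty acid and glycerolipid synthesis, 34 were tested, of which 4 were lower and 5 were higher, beside 8.28% and 20.7% of all genes (median difference 0.05). After 75th percentile scaling 10 were lower and 7 higher, beside 24.7% and 23.8% of all genes. Acsl3, an acyl-CoA synthetase of the endoplasmic reticulum and lipid droplets, fell from 18.8 ± 3.49 to 5.96 ± 1.49 FPKM (difference -1.51, SE 0.18, limma adjusted p = 1.3e-05). Elovl7, Hacd1 and Hsd17b12, which act in chain elongation, had differences of -0.67, -0.57 and -0.46, with limma adjusted p of 0.010, 0.015 and 0.032. The call of Hsd17b12 held in 1 of the 6 fits that left out a tumor. Elovl7 was not called without ACT + NKTR-214 replicate 2 (limma adjusted p = 0.0864) or with no filter on low values (0.0541), nor was Hacd1 without ACT + IL-2 replicate 3 (limma adjusted p = 0.0996). Those that rose included Acsl1, another acyl-CoA synthetase, from 8.85 ± 2.22 to 18.5 ± 5.35 FPKM (difference 0.96, SE 0.21), Dgat2, which makes triglyceride (0.85, SE 0.23), Fads3 (0.69, SE 0.16) and the mitochondrial acetyl-CoA synthetase Acss1 (0.66, SE 0.16), with limma adjusted p of 0.0023, 0.010, 0.0046 and 0.0056. All 4 of these calls were lost without ACT + IL-2 replicate 2, where limma gave adjusted p of 0.0561, 0.11, 0.0676 and 0.0522. Agpat2, an acyltransferase of glycerolipid synthesis and the other gene called higher, rose by 0.62 (SE 0.15, limma adjusted p = 0.0055) and kept its call in all 6 fits that left out a tumor. The call of Dgat2 was also lost with quantile normalization (limma adjusted p = 0.11) and with no filter on low values (0.0821). With quantile normalization the differences of Fads3 and Acss1 were 0.40 and 0.37, and without ACT + NKTR-214 replicate 1 that of Dgat2 was 0.54. Dgat2 ran in the order of the adipocyte sums, with 1.62, 1.12 and 0.79 FPKM in ACT + IL-2 and 4.89, 2.71 and 1.65 FPKM in ACT + NKTR-214 tumors, and the part of adipocytes was not tested.

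Of 22 genes of fatty acid oxidation, 21 were tested, of which 3 were lower and 2 were higher, beside 8.28% and 20.7% of all genes (median difference -0.08). After 75th percentile scaling 5 were lower and 4 higher, beside 24.7% and 23.8% of all genes. Ppargc1a, a coactivator of mitochondrial genes, fell from 37.3 ± 6.21 to 13.2 ± 4.495 FPKM (difference -1.47, SE 0.21, limma adjusted p = 8.5e-05), and Eci1 and Ehhadh had differences of -0.62 and -0.47 with limma adjusted p of 0.0071 and 0.024. Eci1 was not called without ACT + NKTR-214 replicate 2 (limma adjusted p = 0.0558), and Ehhadh was not called without ACT + IL-2 replicate 3 or ACT + NKTR-214 replicate 2 or 3 (limma adjusted p of 0.0802, 0.14 and 0.0693). Cpt1a, the carnitine palmitoyltransferase that admits long-chain acyl groups to mitochondria, rose from 11.9 ± 4.10 to 21.4 ± 3.92 FPKM (difference 0.83, SE 0.20, limma adjusted p = 0.0050). Acaa2, a thiolase of the same pathway, rose by 0.77 (SE 0.19, limma adjusted p = 0.0059). Both calls were lost without ACT + IL-2 replicate 2, where limma gave adjusted p of 0.07245 and 0.06495.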

How the data were processed

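RNA-seq of 6 whole B16F10 tumors, 3 per group, was used. The authors mapped reads to GRCm38 with HISAT2 2.0.4 and counted them per gene with HTSeq, per the submitters' processing notes, and deposited FPKM values, 1 column per tumor, with no further scaling between libraries stated. Depth was inferred from the FPKM of the least expressed genes, which take whole multiples of the value of 1 read.

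Genes averaging 0.1 FPKM or more entered as log2(FPKM + 1). The fit used limma 3.58.1 under R 4.3.3 (eBayes with trend) over 14172 genes, with Benjamini-Hochberg adjustment at 0.05 and no block. Tables were made in Python 3.11.15 with numpy 2.4.6 and pandas 2.3.3, and figures with matplotlib 3.10.9. The fit was also run on simulated data without differences in scale between libraries, so that run says nothing of the scaling. A fold on this scale understates the change of low genes. An exact two-sided permutation test of 3 against 3 tumors cannot give a p below 0.1, so adjusted p-values rest on the variance shared across genes.

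The 35 genes and all lists were chosen with earlier results of these data known. Values per tumor were given for the 5 sterol and the 5 fatty acid genes with the greatest absolute difference, all regulators, and genes of the sign opposite to their branch median, with Fdft1 added after its values were seen. Of each other list, the called genes averaging 1 FPKM or more were ranked by difference and up to 4 per direction were named, and of each marker list the 2 highest. In the sterol and isoprenoid list the genes that this rule names are not reported here, and those named instead, like Agpat2, were chosen after their values were seen. Positions are from GENCODE vM21, and promoters from RefSeq (GRCm38.p6). Shared sequence is the share of 50-base stretches of a gene's transcripts found in those of another gene. The settings varied were the pseudocount (0.1), the filter (a mean FPKM of 1, or none), the scaling (to the 75th percentile, or quantile normalization), the eBayes trend, a replicate block, each tumor left out and, added after the data were seen, scaling to reads in genes.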

Additional observations from a re-analysis of the deposited data

How the results depend on the processing

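No gene of the set that was called changed sign under any alternative run. Of the 35 genes, 28 were called lower in the report, 26 to 31 under the other settings and 26 to 29 with 1 tumor left out, while the count over all genes tested ran from 939 to 4525 and from 635 to 2003. Scd1 was also not called with quantile normalization, scaling to reads in genes, no filter, no trend or without ACT + IL-2 replicate 2, and Acaca was not called with no filter and in 4 of the 6 fits that left out a tumor. Idi1 was not called without the trend or without ACT + NKTR-214 replicate 2. The median difference of the sterol enzymes was -1.37 with a pseudocount of 0.1, -1.34 with a minimum mean FPKM of 1 and -1.34 with quantile normalization, and -1.26 to -1.07 with 1 tumor left out. That of the fatty acid branch was -0.99 with quantile normalization and -0.94 to -0.70 with 1 tumor left out, and that of the regulators -0.84 to -0.67. The sterol minus fatty acid gap was -0.48 with a pseudocount of 0.1, -0.48 with a minimum mean FPKM of 1 and -0.40 to -0.27 with 1 tumor left out. The number of fatty acid genes called higher was 0 to 1 with 1 tumor left out.

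Over all genes, 1173 were lower and 2940 higher. The lower genes numbered 3501 with 75th percentile scaling, 4525 with quantile normalization and 3426 with scaling to reads in genes (added after the data were seen), with 3370, 2691 and 3403 higher. With 1 tumor left out 635 to 2003 were lower and 2004 to 3480 higher, and ACT + IL-2 replicate 2 gave 2003 and 2004. Under the same scalings the other sterol and isoprenoid genes called lower numbered 10, 14 and 10, the other fatty acid and glycerolipid genes 10, 12 and 10, and the fatty acid oxidation genes 5, 10 and 5, with 4, 4 and 4 called higher. In the sterol and isoprenoid list the number called higher was 0 with a minimum mean FPKM of 1 and 0 without the trend. With 1 tumor left out these lists gave 6 to 7, 2 to 8 and 1 to 3 lower and 0 to 2, 1 to 6 and 0 to 4 higher, and the cause of these shifts was not tested.

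The replicate numbers were taken to name different mice. Same-numbered tumors deviated with correlations of -0.21, -0.07 and 0.40, and differently numbered tumors with -0.54 to 0.59. With 3 tumors per group these values cannot show whether the numbers pair the tumors. The replicate block gave 1227 lower and 3090 higher genes. Depth limits Idi1 most. Srebf1 and Fdft1 were not called as deposited or after 75th percentile scaling, which does not show that these genes were equal, and Scap was called lower after that scaling.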
